A study of Macaca fascicularis with 132 samples.

Results

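Peripheral blood mononuclear cells that had spent 6 h in culture with heterodimeric IL-15 were compared with cells of the same cynomolgus macaques (Macaca fascicularis) cultured for 6 h without it. The comparison takes 24 libraries, chosen by the treatment and time in their titles, from a series of 11 groups with 12 libraries each: 12 with IL-15 at 40 ng/ml and 12 controls at 0 ng/ml. Each side holds 4 animals (38142 and 38155, labelled female, and 38147 and 38157, labelled male) with 3 numbered libraries each. The 3 libraries were summed for each animal and group, which gave 8 of the 44 sums of the series, in 4 pairs of IL-15 and control from 1 animal. All cells were whole mononuclear cell preparations treated outside the body. Age, culture medium and the content of the control cultures beyond the dose of 0 are not given in the labels used here. Nor is it said whether the 3 libraries of an animal and group were separate cultures. The main tests therefore use 1 sum per animal and group. Their p-values rest on the spread of these sums left after terms for group and animal, over all 11 groups.

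Interleukin-15 is a cytokine of the common gamma chain family that natural killer cells and memory CD8 T cells depend on for survival, division and cytotoxic function. It is normally presented bound to its own receptor alpha chain, and the heterodimer used here joins both in a soluble form. Receiving cells detect it through the beta chain shared with the IL-2 receptor and through the common gamma chain, whose Janus kinases activate STAT transcription factors. In blood mononuclear cells the other cell types, such as B cells and monocytes, can respond as well, directly or to products of the responding lymphocytes.

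The control libraries held 20431703 to 47509688 counts and the IL-15 libraries 17513926 to 35274116 counts. In each of the 4 animals the control sum was deeper, by a factor of 1.08 in 38142, 1.49 in 38147, 1.02 in 38155 and 1.95 in 38157. Genes with at least 1 count numbered 17502 to 20082 per library, with 8.14% to 9.25% of the counts in the top 20 genes. No 6 h library stood apart from its sister libraries: 0 of 24 lay over the distance limit that 3 libraries of other times exceeded. Neither table of counts pairs its gene IDs with symbols and 0 IDs could be matched to one, so genes are described in groups and by 4 IDs, and the label of the cells could not be checked against marker genes.

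At 6 h, 932 of 18197 genes tested were higher with IL-15 (5.12%) and 644 were lower (3.54%; edgeR quasi-likelihood test with Benjamini-Hochberg adjusted p under 0.05, n = 4 animals). In these mixed cells more of a transcript per cell and more cells of the type that carries it cannot be told apart. Most changes were modest. The median log2 fold change was 0.56 for the higher genes and -0.58 for the lower ones, with 52.4% and 50.2% of them changed by less than 1.5-fold. A tail of large changes existed on the higher side. There, 233 genes were at least 2-fold, 79 at least 4-fold and 31 at least 8-fold higher, and on the lower side 16.9% of the 644 genes were at least 2-fold lower, 12 at least 4-fold and 1 at least 8-fold. The 95th percentile was 2.51 on the log2 scale for the higher genes, and the strongest 5% of the lower ones started at -1.48. Of the higher genes, 8 had at most 3 counts over the 4 control sums together, so that they were near silent without IL-15, and 2 of the lower genes had at most 3 counts over the 4 sums with IL-15.

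**Figure D1:**
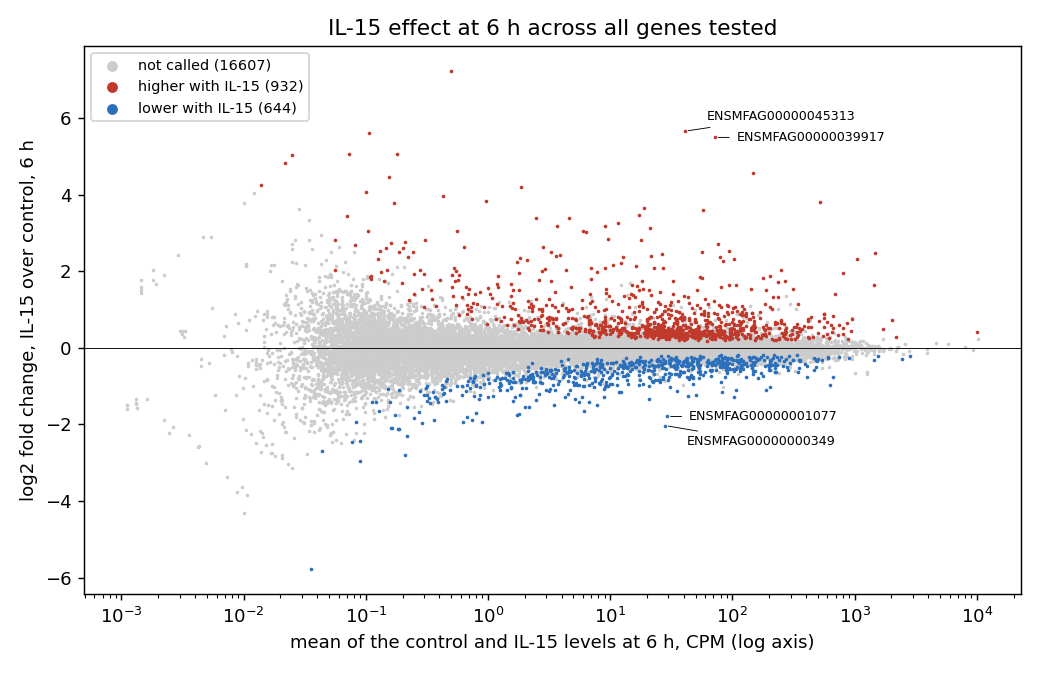
Log2 fold change of IL-15 over control at 6 h against the mean of both group levels in CPM (log axis), 1 point per gene, for the 18183 of 18197 genes tested that had a count at 6 h. The 932 genes called higher (red) reach far above a log2 fold change of 2, while of the 644 called lower (blue) 12 lie at -2 or below, and the 4 labelled IDs are those described in full.

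Called genes were found at every level of abundance, though rarely among the least abundant. Levels are given in CPM, counts relative to the TMM-scaled library size. Of the 5821 genes with a mean under 1 CPM over the 8 sums, 1.25% were called higher and 1.24% lower, with median log2 fold changes of 1.9 and -1.26. Between 1 and 5 CPM, 4.32% of 2501 genes were called higher and 4.64% lower. Between 5 and 25 CPM, 6.83% of 3632 genes were called higher and 4.65% lower. Between 25 and 100 CPM the shares were 8.41% and 4.34% of 3914 genes, and at 100 CPM or more 7.47% and 5.02% of 2329 genes. The median standard error of the log2 fold change was 0.5 under 1 CPM and 0.1 at 25 CPM or more. The higher genes together took 6.84% ± 0.236 of all counts in control sums (SD, n = 4 animals) and 10.6% ± 1.2 with IL-15. The lower genes took 5.46% ± 0.547 and 3.98% ± 0.128. A small number of genes carried this shift. Of a summed gain of 38600 CPM over the 932 higher genes, 35 genes made up 50% or more, and the largest single gain was 2780 CPM. Of a summed loss of 13400 CPM over the 644 lower genes, 50 genes made up 50% or more. These shares describe the genes that the test picked and are no separate support.

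The number of calls depended on how the spread was estimated. The main test shares 1 estimate of the spread over all 11 groups of the series. With the 8 sums at 6 h fitted alone, 1837 genes were higher and 2274 lower, among them 869 of the 932 and 626 of the 644 called above. The balance of both directions also moved. The higher genes made up 59.1% of the calls with TMM scaling, 48.7% with upper quartile scaling (791 higher, 832 lower) and 44.7% in the 6 h sums alone, so which direction held more genes changed with the setting. A replicate block for the 2 sums of an animal at a time, which the main test lacks, gave 1241 higher and 1269 lower genes.

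From the genes that passed the test, reached 5 CPM in the higher group and moved the same way in 4 of 4 animals, 4 IDs were chosen by size of change. Among these genes ENSMFAG00000045313 had the largest rise. These criteria left 771 higher and 471 lower genes. Their 6 h values therefore describe the choice and support nothing by themselves. In control sums at 6 h this gene stood at 2.26 CPM in animal 38142, 0.138 in 38147, 3.56 in 38155 and 0.662 in 38157. With IL-15 it was at 57.7, 8.43, 199.5 and 54 CPM in the same order of animals. The groups did not overlap, the lowest sum with IL-15 lying above the highest control sum, and within each animal the 3 IL-15 libraries lay above the 3 control libraries. The fitted log2 fold change was 5.66 ± 0.68 (SE; edgeR adjusted p = 5.3e-07).

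ENSMFAG00000039917 had the second largest rise among the genes that met these criteria. Control sums at 6 h held 4.82 CPM in animal 38142, 0.393 in 38147, 8 in 38155 and 1.17 in 38157, and IL-15 sums held 104.5, 21.1, 349.6 and 85.8 CPM. Again the groups did not overlap, and the 3 libraries of each kind were apart within every animal. The log2 fold change was 5.5 ± 0.77 (SE; edgeR adjusted p = 6.9e-06). The third gene in this order, not among the 4 described, was at 4.57.

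For both of these genes the 4 animals lay further apart in level than in log2 fold change. Animal 38155 was highest and 38147 lowest in both groups and for both genes, with 38142 and 38157 between them in the same order. The per-animal log2 fold change of ENSMFAG00000045313 was 4.66 in 38142, 5.7 in 38147, 5.8 in 38155 and 6.3 in 38157. For ENSMFAG00000039917 it was 4.43, 5.66, 5.45 and 6.16. Per-animal values use log2 CPM with a prior count of 2, which shrinks the change of low counts such as the 13 counts of ENSMFAG00000045313 in the control sum of 38147.

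ENSMFAG00000000349 had the largest fall among the genes that met the criteria of choice. A fall here means a level with IL-15 below the control of the same time. Control sums at 6 h were at 43.9, 37.3, 47.1 and 50.9 CPM in animals 38142, 38147, 38155 and 38157, and sums with IL-15 at 10.2, 9.52, 8.94 and 16.4 CPM. All IL-15 sums lay below all control sums, with animal 38157 the highest of the treated. The log2 fold change was -2.03 ± 0.16 (SE; edgeR adjusted p = 5.9e-12), from -1.64 in 38157 to -2.39 in 38155. ENSMFAG00000001077 followed, with control sums of 30.2, 57.3, 61.9 and 33.8 CPM against 9.07, 15.4, 14.9 and 11.4 CPM with IL-15. Its groups did not overlap either, and here the controls spread over a wider range than the treated sums. The log2 fold change was -1.79 ± 0.24 (SE; edgeR adjusted p = 2.6e-06), from -1.56 in 38157 to -2.06 in 38155.

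**Figure D2:**
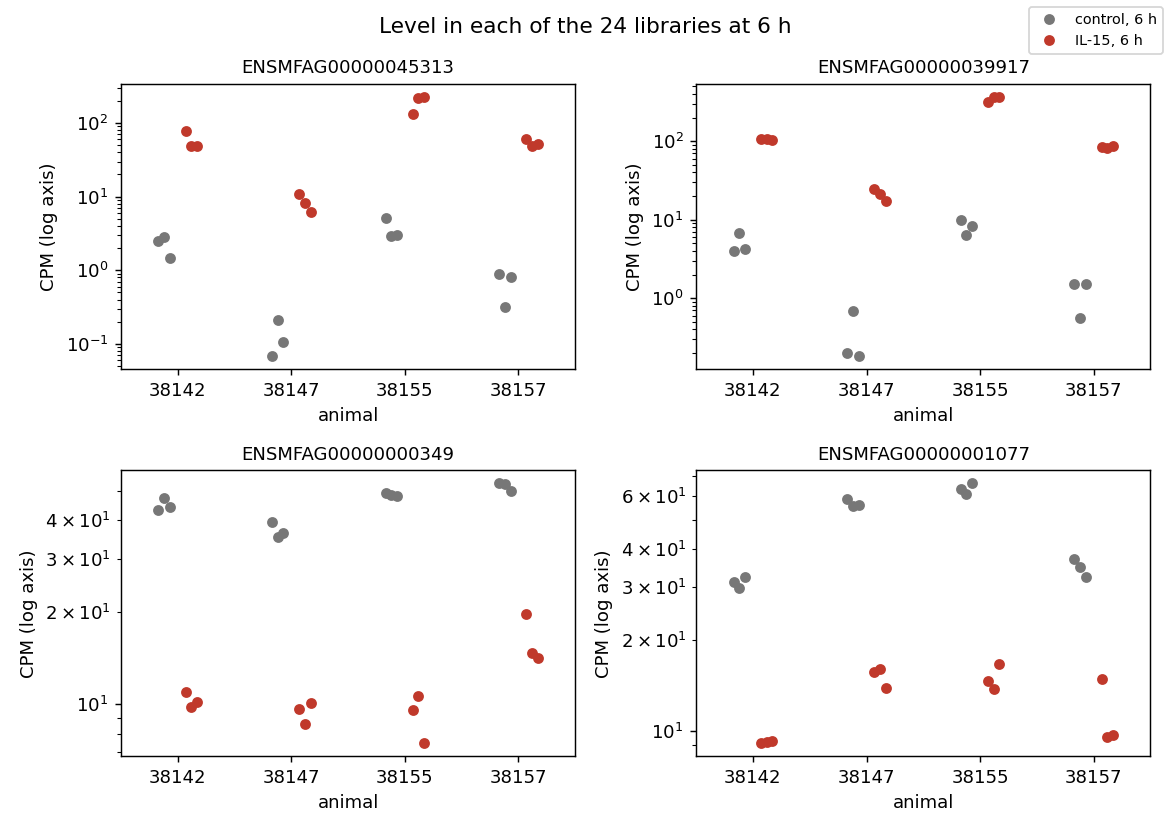
Level of the 4 IDs in each library at 6 h (CPM, log axis), by animal, with 3 control (grey) and 3 IL-15 (red) libraries per animal. In each panel and animal the grey and red points are apart, and in the upper panels red lies well above grey in all 4 animals. Animal 38147 is lowest there in both groups with an exception in the controls of ENSMFAG00000039917. Its library 2 (0.681 CPM) lies above library 2 of 38157 (0.556 CPM).

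The rhesus table, in which the counts of the same libraries are given for rhesus macaque gene IDs, gave 861 higher and 742 lower genes at 6 h by the same test. By the same criteria its largest rises were 5.53 ± 0.65 and 5.48 ± 0.77 (SE, log2; edgeR adjusted p of 3e-07 and 5.9e-06) and its largest falls -2.08 ± 0.17 and -1.81 ± 0.24 (adjusted p of 1.2e-11 and 2e-06). The first of these rises went from a mean of 0.901 to 40.3 CPM and the second from 3.6 to 138 CPM. The IDs of both tables were not matched to each other, and the reads behind them are the same.

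The levels at the other times did not rank these 4 IDs, although those libraries shared the filter on low counts and the estimate of the spread with the 6 h test. Differences from 6 h, by contrast, contain the values that chose the IDs. ENSMFAG00000045313 was at 0.192 ± 0.139 CPM before culture (SD, n = 4 animals). At 2 h it was still at 0.0776 ± 0.0403 CPM with IL-15 and 0.0257 ± 0.0427 CPM without, on 0 to 9 counts per sum, and did not pass the test (log2 fold change 1.62 ± 2.29, SE; edgeR adjusted p = 0.91). It was higher at 12 h (7.49 ± 0.74, adjusted p = 4.9e-09), where IL-15 sums held 159.9 ± 129.2 CPM. It was also higher after 24 h (6.03 ± 0.68, adjusted p = 3.7e-08) and after 48 h (3.76 ± 0.61, adjusted p = 1.1e-05), each time in 4 of 4 animals. The effect at 6 h was not shown to differ from that at 2 h (difference 4.04 ± 3.43, adjusted p = 0.74), a comparison that the low counts at 2 h make imprecise.

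ENSMFAG00000039917 likewise showed no call at 2 h, with 0.757 ± 0.464 CPM in IL-15 sums (SD, n = 4 animals) and 0.928 ± 0.504 CPM in controls (log2 fold change -0.38 ± 0.89, SE; edgeR adjusted p = 0.96). Here the effect at 6 h exceeded that at 2 h by 5.88 ± 1.13 (adjusted p = 0.0037). The 6 h part of this difference chose the gene, which favours such an excess, so the difference is no separate support. The gene was higher at 12 h (6.11 ± 0.78, adjusted p = 4.8e-07), 24 h (5.2 ± 0.74, adjusted p = 2.1e-06) and 48 h (3.51 ± 0.69, adjusted p = 0.00013). Its level with IL-15 went on from 140.2 ± 144.1 CPM at 6 h to 450.8 ± 381.2 CPM at 12 h and 1102.3 ± 754.3 CPM at 24 h. Controls were at 3.6 ± 3.51 CPM at 6 h and at 79.6 ± 95 CPM at 48 h.

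The 2 IDs chosen for their falls followed different courses in the control cultures. A choice by low IL-15 over control at 6 h favours genes with high control sums at 6 h. Comparisons of these control sums with other times are therefore no separate support. ENSMFAG00000000349 stood at 3.73 CPM before culture, and the control sums rose from there by 3.62 ± 0.17 on the log2 scale by 6 h (SE; edgeR adjusted p = 1.3e-18). IL-15 sums at 6 h held 11.3 ± 3.44 CPM (SD, n = 4 animals), between the level before culture and the 44.8 ± 5.76 CPM of the controls. Its fall with IL-15 was greater at 6 h than at 2 h (difference of the log2 fold changes -1.35 ± 0.22, adjusted p = 0.00025), and at 12 h the difference from 6 h did not pass the test (-0.56 ± 0.21, adjusted p = 0.31). The 6 h values that chose this gene are part of both differences, so neither is separate support.

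ENSMFAG00000001077 was already at 26.3 ± 17.9 CPM before culture (SD, n = 4 animals), and the controls were highest at 6 h, with 45.8 ± 16.1 CPM, then at 31.4 ± 15 CPM at 12 h and 10.6 ± 6.22 CPM at 48 h. The 6 h controls were above those before culture by 0.96 ± 0.24 (SE, log2; edgeR adjusted p = 0.00093). The choice of this gene used the same 6 h control sums. IL-15 sums at 6 h held 12.7 ± 3 CPM. The gene was lower with IL-15 at 12 h (-1.56 ± 0.24, adjusted p = 7.1e-06), 24 h (-1 ± 0.24, adjusted p = 0.0012) and 48 h (-0.67 ± 0.24, adjusted p = 0.024). At 2 h the log2 fold change was -0.79 ± 0.24 and missed the threshold (adjusted p = 0.077).

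**Figure D3:**
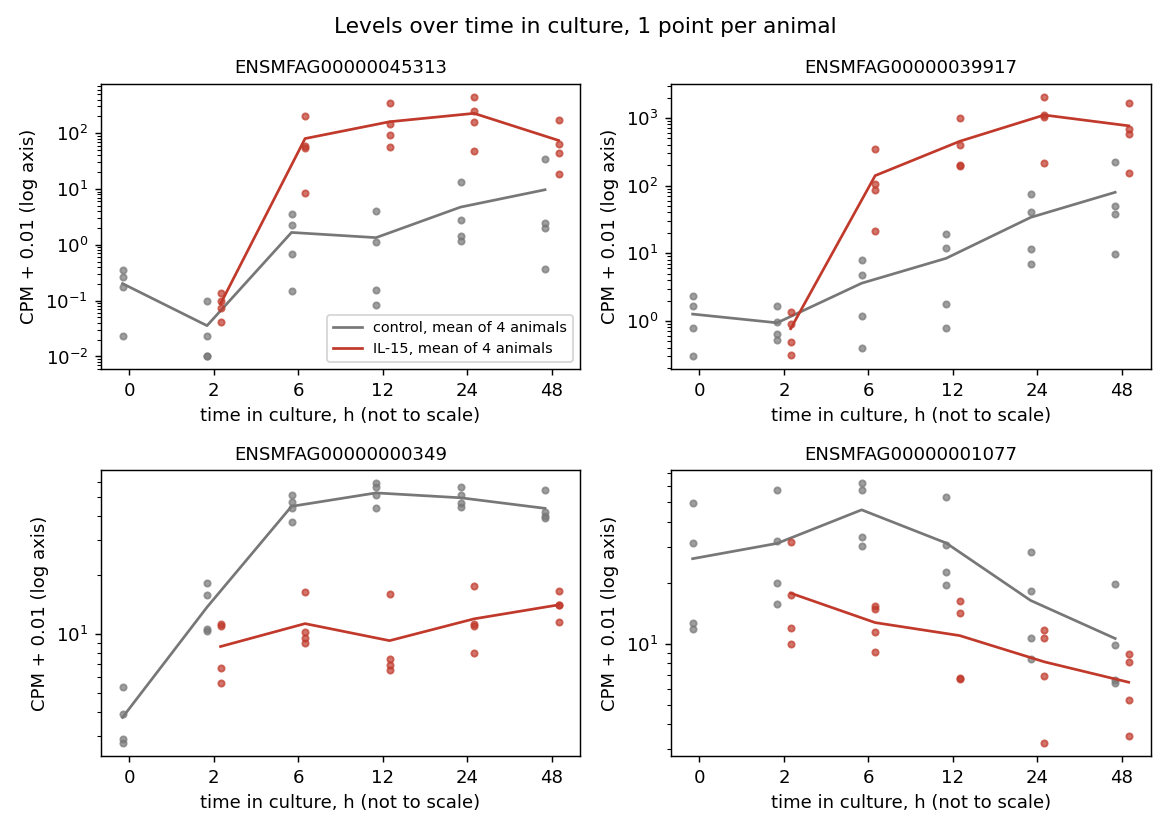
Level of the 4 IDs (CPM + 0.01, log axis) in control (grey) and IL-15 (red) sums at 0 to 48 h, 1 point per animal with a line through the mean of 4 animals. At 2 h the red and grey points of the upper genes overlap and from 6 h on the means are apart, while for ENSMFAG00000000349 the controls climb from 3.73 CPM at 0 h to 44.8 CPM at 6 h and the IL-15 sums reach 11.3 CPM.

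Few of the genes called at 6 h had already been called at 2 h. At 2 h the test called 1.67% of genes higher and 0.495% lower. Of the 932 genes higher at 6 h, 13.8% had been called higher at 2 h and 803 had not, and of the 644 lower genes 49 (7.61%) had been called lower. Seen from 2 h, these are 42.6% and 54.4% of the calls made there. The genes called at both times had median log2 fold changes of 0.71 at 2 h and 0.83 at 6 h, and 41.1% of them were at least 2-fold higher at 6 h. The 803 others had medians of 0.08 and 0.52, with 22.4% at least 2-fold higher. Among the lower genes the 49 stood at -0.49 and -0.64 and the 595 others at -0.12 and -0.58. Libraries of both times come from the same animals but share no control sums.

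A call at one time and none at another does not show a difference, so the effects of both times were compared directly. The log2 fold change was higher at 6 h than at 2 h for 164 genes (0.901% of those tested) and lower, which includes greater falls, for 0.72% (quasi-likelihood test in edgeR of the interaction, adjusted p under 0.05). Of the 932 higher genes, 148 had a greater effect at 6 h than at 2 h. Their medians were -0.07, 0.99, 1.18, 0.97 and 0.73 at 2, 6, 12, 24 and 48 h, and 1 gene had a smaller effect at 6 h. Of the 644 lower genes, 82 had a greater fall at 6 h, with medians of 0.1, -0.69, -0.75, -0.83 and -0.74 at the 5 times, and 0 had a smaller one. These subsets were picked by their 2 h and 6 h values, while 12, 24 and 48 h were not used to pick them. With any 1 animal left out, 38 to 57 genes had a higher and 32 to 56 a lower log2 fold change at 6 h. With the pairs of sums as a replicate block they numbered 297 and 369.

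Between 6 and 12 h few differences could be shown. The log2 fold change was higher at 12 h than at 6 h for 14 genes (0.0769%) and lower for 4 (0.022%), and 1207 and 817 genes had an unadjusted p under 0.05. Without animal 38142 both counts were 0 (615 and 478 genes had an unadjusted p under 0.05 in edgeR), and with the pairs of sums as a replicate block they were 158 and 39. Without the 3 libraries of other times that stood apart they were 32 and 9. Of the 932 higher genes, 3 had a greater and 1 a smaller effect at 12 h, and 0 of the 644 lower genes passed in either direction.

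Most genes called at 6 h kept their direction at later times. At 12 h, where 17.5% of all genes were called higher and 14% lower, 88.6% of the higher genes and 83.7% of the lower ones were called in the same direction (826 and 539 genes). At 24 h (20% and 19% of all genes) the counts were 785 and 514, and at 48 h (20.2% and 20%) 661 and 456. The sign was the same at 48 h for 91% of the higher and 87.7% of the lower genes, against 59.1% and 67.8% of the genes not called at 6 h with the same sign there. Over 2, 6, 12, 24 and 48 h, the median log2 fold change of the higher genes was 0.13, 0.56, 0.68, 0.67 and 0.5. That of the lower genes was -0.14, -0.58, -0.6, -0.61 and -0.58. The 6 h medians are those of genes picked at 6 h.

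**Figure D4:**
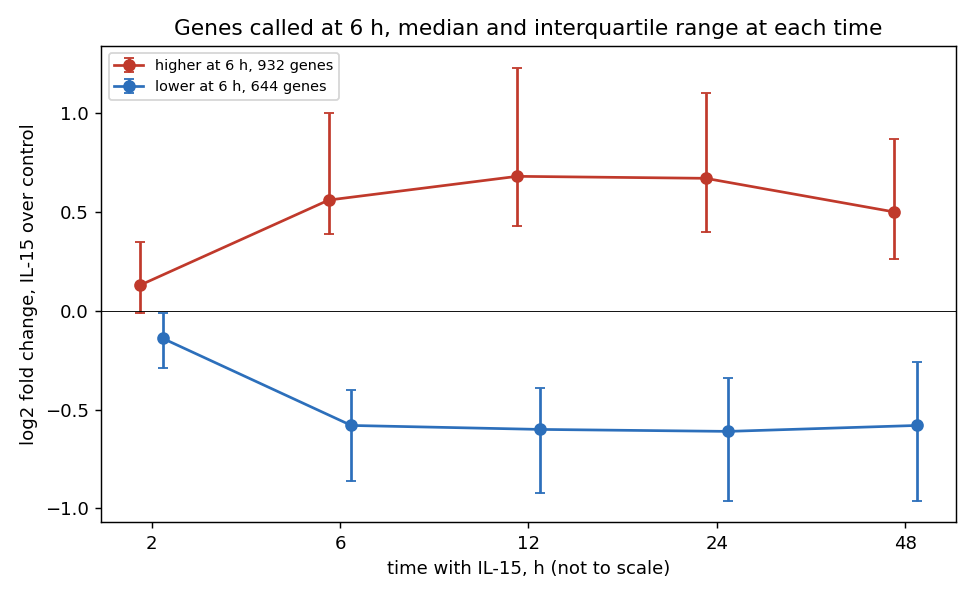
Median log2 fold change of IL-15 over control at 2, 6, 12, 24 and 48 h for the 932 genes called higher (red) and the 644 called lower (blue) at 6 h. Bars give the interquartile range over genes. Both medians are small at 2 h (0.13 and -0.14) and from 6 h to 48 h lie at 0.5 to 0.68 and at -0.58 to -0.61.

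Called in the same direction at each of 12, 24 and 48 h were 619 of the higher genes (66.4%) and 405 of the lower ones (62.9%), against 10.1% and 7.41% of all genes tested. Of these, 530 and 368 had not been called in that direction at 2 h. No call in the same direction at any other time was made for 55 higher and 55 lower genes (5.9% and 8.54%), against 70.4% of all genes in either direction. A call in the opposite direction at another time was made for 23 higher and 23 lower genes (2.47% and 3.57%), against 29.6% of all genes. Abundance was not matched in these shares, and all times share the estimate of the spread and the animals.

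Control cultures form the background. By 6 h, 4638 genes were higher in control cultures than before culture (25.5% of those tested) and 4632 lower (25.5%). The IL-15 comparison uses the same 6 h control sums, so the values are given side by side only. The median log2 change from 0 h was -0.09 in control sums and 0.54 in IL-15 sums for the 932 higher genes. For the 644 lower genes it was 0.22 in control sums and -0.42 in IL-15 sums, and over all genes tested -0.03 in both.

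The change of control cultures from 0 to 2 h shares no libraries with the 6 h comparison. In it 24.5% of all genes tested rose and 28.4% fell (edgeR, adjusted p under 0.05). Of the 932 genes that IL-15 cultures held at a higher level at 6 h, 32% had risen and 32.6% had fallen in control culture at 2 h (298 and 304 genes). Of the lower genes, 35.7% had risen and 32.3% had fallen (230 and 208). Both sets held genes that rose and genes that fell in early culture. The shares were not tested against those of all genes, and abundance was not matched.

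The 4 animals moved in the same direction for most called genes. Of the 932 higher genes, 98.9% were higher in 4 of 4 animals, and of the 644 lower genes 98.9% were lower, against 20.4% and 20.8% of all genes tested. All 4 IL-15 sums lay above all 4 control sums for 535 of the higher genes, and below them for 215 of the lower ones, against 4.73% and 2.12% of all genes. Both measures use the libraries of the test itself. Pearson's r between the log2 fold changes of 2 animals had a median of 0.796 (0.741 to 0.875 over 6 pairs of animals). It is taken across the 10010 genes with 5 CPM or more, and genes are no independent replicates.

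The size of the change varied between animals. The root mean square log2 fold change over these 10010 genes was 0.341 in 38142, 0.326 in 38147, 0.483 in 38155 and 0.358 in 38157. Animal 38155 held the largest of the 4 changes for 57.1% of the higher and 51.6% of the lower genes. At least 2-fold higher were 312 genes in that animal and at most 142 in each of the others. Its median change was 0.67 over the higher genes and -0.7 over the lower ones, against 0.46 to 0.53 and -0.5 to -0.54 in the other 3 animals. Among genes with the same sign in 4 of 4 animals, the smallest change was less than 50% of the largest for 50.4% of the higher and 46% of the lower genes. How much of this spread is noise was not tested. With 2 animals of each labelled sex, and 38142 close to both males, no comparison of the sexes was made.

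Each animal was then set against a test that did not use its counts. The filter on low counts and the CPM scale of the animal left out came from all 4 animals. Without 38142 the test called 484 genes higher (2.66% of those tested) and 336 lower (1.85%), and in 38142 itself 99.4% and 99.1% of them moved in that direction. Without 38147 it called 659 (3.62%) and 520 (2.86%), of which 97.6% and 95.8% moved the same way in 38147. Without 38155 it called 468 (2.57%) and 276 (1.52%), and the shares in 38155 were 97.9% and 99.3%. Without 38157 it called 622 (3.42%) and 455 (2.5%), and the shares in 38157 were 99% and 99.1%.

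Genes that these tests did not call had the same sign in the remaining animal in 63.2% to 71.6% of cases. The median change of called genes in the unused animal was 0.68 and -0.6 in 38142, 0.49 and -0.47 in 38147 and 0.65 and -0.51 in 38157, smaller than the medians of the 3 animals that made the calls. In 38155 it was 0.89 and -0.81, larger than the 0.79 and -0.7 of the 3 others. Called with all animals and also without each of them in turn were 349 of the 932 higher genes and 221 of the 644 lower ones, with median log2 fold changes of 0.88 and -0.75.

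**Figure D5:**
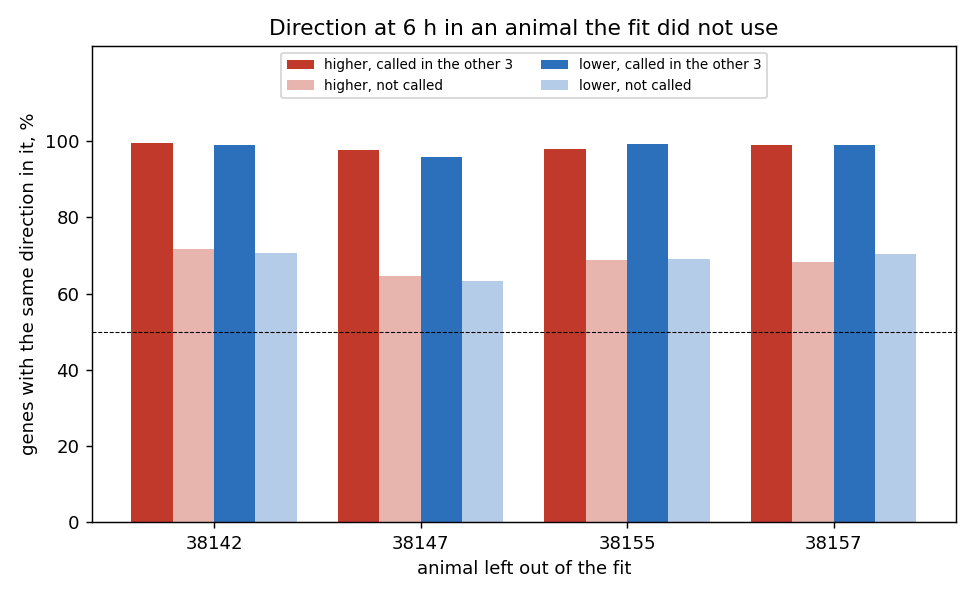
Share of genes that moved in the same direction in the animal named on the x axis, for genes called higher or lower in a fit without that animal (dark bars) and for genes not called in that fit with the same sign (pale bars). Dark bars lie between 95.8% and 99.4% and pale bars between 63.2% and 71.6%. The dashed line marks 50%.

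The sums can also be taken apart into single libraries. Within animal 38155, the 3 IL-15 libraries lay above the 3 control libraries for 89.3% of the higher genes and below them for 94.3% of the lower ones. The shares were 85.4% and 86.6% in 38142, 82.6% and 81.5% in 38147 and 75.8% and 76.6% in 38157. Over all genes tested, libraries were apart in this way for 9.85% to 17.6% (above) and 12.9% to 20.3% (below) of genes in the 4 animals. In all 4 animals at once they were apart for 542 of the 932 higher and 382 of the 644 lower genes, against 3.84% (above) and 3.52% (below) of all genes tested. The called genes were picked from the sums of these same libraries, so these shares describe the picked genes and are no separate support.

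Each column name of the tables holds a token of unknown meaning, and the tokens were not spread evenly over both groups. Of the 12 control libraries at 6 h, 6 carry Lib1 GL75, which 0 of the IL-15 libraries carry, and Lib1 GL67 is on 2 control and 5 IL-15 libraries. Within an animal, 3 animals have libraries of both groups with 1 token: 38142 in Lib1 GL67 (2 control and 3 IL-15 libraries), 38155 in Lib2 GL75 (1 and 2) and 38157 in Lib1 GL66 (1 and 2). In these libraries of 38142 the direction was that of the calls made without this animal for 98.6% of the higher and 99.4% of the lower genes. In those of 38155 it was so for 94.4% and 99.6%, and in those of 38157 for 95.5% and 93.6%. Among genes not called, the shares were 52.3% to 61.1% on the higher side and 68.2% to 79.4% on the lower side.

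Fitted alone, these 3 animals' libraries of 1 token gave 1158 higher and 1008 lower genes of 14678 tested. Among them were 704 of the 932 higher and 491 of the 644 lower genes of the main test. With a term for the token, the 24 single libraries gave 2044 and 1989, a fit that counts the 3 libraries of an animal and group as replicates although they may not be independent. Between libraries of 1 token, the log2 change of ENSMFAG00000045313 was 4.76 in 38142, 5.43 in 38155 and 5.83 in 38157. That of ENSMFAG00000039917 was 4.3, 5.22 and 5.77. ENSMFAG00000000349 was at -2.14, -2.46 and -1.66 and ENSMFAG00000001077 at -1.75, -2.06 and -1.63. For animal 38147 no token was shared by both groups, so there the token and the treatment cannot be told apart.

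Depth was higher in the controls of every animal. With the deeper sum of each pair thinned at random to the total of the other, 984 genes were higher and 614 lower, of which 916 and 601 were among the calls above.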

How the data were processed

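The authors deposited raw gene-level counts of every library in 2 tables, 1 with cynomolgus IDs (38550 rows, 31327 with a count) and 1 with rhesus IDs (35432 rows). Per the labels' protocols, libraries of mRNA were prepared with KAPA mRNA HyperPrep from column-purified RNA. Aligner, counter, build and annotation: not given in the sources used here. All columns matched a sample by name, and the cynomolgus table was used throughout, with the rhesus table as an alternative.

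Counts of the 3 libraries of each animal and group were summed. No 2 sister libraries at 6 h agreed within sampling noise (lowest chi-square per degree of freedom 3.57, median 10.9, over 24 pairs and genes with at least 20 counts). Main tests used edgeR 4.0.16 in R 4.3.3 (quasi-likelihood, TMM, filterByExpr, robust) on the 44 sums of all 11 groups with a term for the animal. A gene was called at an adjusted p (Benjamini-Hochberg) under 0.05. The SE of a log2 fold change is its absolute value over the square root of the F statistic of the test, a derived value that edgeR does not report. CPM are TMM-scaled, and log2 CPM used a prior count of 2. The test was also run on counts simulated from its own fitted model, which cannot show how well that model describes these libraries. Same-animal sums at 6 h deviated together from their group means (4 of 4 pairs above 0.1, lowest r 0.857), and the labels name the same animals in both groups. The term for the animal spans all times, so it does not remove a deviation that an animal's 2 sums share only at 6 h. Reads were counted without molecular identifiers, so they are not independent molecules.

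The 4 named IDs have the 2 highest and 2 lowest log2 fold changes at 6 h among genes with an adjusted p under 0.05, at least 5 CPM in the higher group and the same sign in 4 of 4 animals. The 37 gene lists written for the case that symbols could be matched were not run. The comparison, the lists and the rule were chosen with earlier results of these data known. Alternatives were the groups in the fit, the pairing, single libraries, scaling (RLE, upper quartile), filters, DESeq2 1.42.0, limma 3.58.1, the rhesus table, leaving out animals, library numbers or libraries that stood apart and, chosen after seeing the data, libraries of 1 token and thinned sums.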

Additional observations from a re-analysis of the deposited data

Results flagged for a closer look

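Among 53 sets of 4 animals checked for the printed values, 5 held an animal far from the other 3. Chance gives about 1 in 20, or 2.6, only if the sets are independent and normally distributed. These sets come from the same 4 animals and most hold CPM values, so the number is a rough guide. ENSMFAG00000000349 with IL-15 was highest in animal 38157 at 6 h (16.4 CPM) and at 12 h (16 CPM). ENSMFAG00000045313 in control sums was highest in animal 38155 at 2 h (0.089 CPM, on 5 counts), 24 h (13.5 CPM) and 48 h (33.9 CPM).

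The effect of IL-15 differed between 6 h and 2 h by the test of the difference. The log2 fold change was higher at 6 h for 0.901% of the genes tested and lower for 0.72% (edgeR, adjusted p under 0.05), among them ENSMFAG00000039917 (5.88 on the log2 scale) and ENSMFAG00000000349 (-1.35). Both IDs were chosen by their 6 h values, which are part of this difference. Between 12 h and 6 h the log2 fold change was higher at 12 h for 0.0769% and lower for 0.022%.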

How the results depend on the processing

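The log2 fold changes of the 4 IDs kept their direction and stayed under an adjusted p of 0.05 in all 23 alternatives run for them. The alternatives reuse the libraries that picked these IDs, so this is no separate support. They lay between 5.17 and 6.1 for ENSMFAG00000045313, 4.97 and 5.86 for ENSMFAG00000039917, -2.16 and -1.93 for ENSMFAG00000000349 and -1.9 and -1.74 for ENSMFAG00000001077, with adjusted p up to 0.0016, 0.027, 3.8e-05 and 0.00045. The rhesus table gives no value for these IDs.

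The count of genes higher at 6 h (932) was within 1.5 times in 16 of 24 alternatives and that of genes lower (644) in 15 of 24. The 6 h sums alone gave 1837 higher and 2274 lower, single libraries 2869 and 3091, and single libraries with animal and library number as a replicate block 2797 and 2998. With a token term they gave 2044 and 1989. These fits of single libraries rest on 12 libraries a side from 4 animals, not on animals as replicates. For the animals, limma on the 4 paired differences gave 2122 and 2002. The replicate block of each animal's pair of sums gave 1269 lower, and libraries of 1 token 1008 lower. Leaving out 1 animal or library number, with low counts filtered anew, gave 447 to 805 higher and 293 to 642 lower. Without 38142 they were 479 and 336, and without 38155 447 and 293. Without library number 3, 608 were higher. Fits with fewer animals or with 1 estimate of the spread per comparison differ by construction, and otherwise the cause was not tested.

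For log2 fold changes higher and lower at 6 h than at 2 h (164 and 0.72% of genes), the paired replicate block gave 297 and 369, no filter on low counts 95 higher, DESeq2 228 lower, and leaving out 1 animal 38 to 57 and 32 to 56. For 12 h against 6 h (14 and 4) the block gave 158 and 39, DESeq2 130 and 26, the fit without libraries that stood apart 32 and 9, and leaving out 1 animal 0 to 22 and 0 to 1. Without 38142 both were 0, without 38147 they were 7 and 0, without 38155 22 and 1, and without 38157 6 and 0. Control culture at 6 h against 0 h stayed within 1.5 times in 10 of 10 alternatives. Depth limits the genes under 1 CPM, whose standard errors had a median of 0.5 on the log2 scale.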
